A study of Mus musculus with 6 samples.

Results

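The 38 genes described here encode the machinery that copies DNA and the cyclin E and E2F proteins that start S phase. They were taken by name from a fixed list of replication and G1/S genes, and all 38 were found among the 23420 genes of the expression table. Their transcripts were compared in embryonic mouse lungs (stage E11.5dpc, dpc being days post coitus) with and without Rptor in the epithelium. The comparison asks how the transcripts of these genes respond when mTORC1, a kinase complex known for driving cell growth and cell cycle progression, is lost from the lung epithelium.

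Bulk RNA-Seq was performed on whole mouse lungs, with 3 libraries per genotype, each made from 3 or 4 lungs of the same genotype pooled together. The control lungs were Raptorf/+; ShhCre/+ and the mutant lungs Raptorf/f; ShhCre/+, so that all lungs carried Shh Cre and at least one floxed allele of Rptor, the gene for the mTORC1 subunit Raptor. Shh Cre is active in the epithelium, and the mesenchyme, vessels and blood cells of a mutant lung keep Rptor. Embryos of both sexes were used, mutants from different litters were combined, and p-values measure the spread between these pools.

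Library depth was 20197642 to 21276090 reads. Rptor itself had 2126, 2193 and 2279 normalized counts (reads divided by the size factor of the library) in control and 2023, 2137 and 2148 in mutant lungs, with overlapping groups and a log2 fold change of -0.065 (adjusted p = 0.584 in limma). Whole-lung counts over the entire gene, in which non-epithelial cells keep it, do not check the deletion in the epithelium. Xist is transcribed from the inactive X chromosome of female cells. It had 4599, 309 and 12989 normalized counts in control pools 1, 2 and 3 and 41.9, 466 and 161 in the mutant pools, so the pools were not matched in sex. Of the 38 genes, Pola1 is on the X chromosome.

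Before a cell enters S phase, the origin recognition complex, CDC6 and CDT1 load the MCM2-7 helicase onto DNA, which is called licensing. Cyclin E with its kinase and a second kinase, CDC7, then switch the helicase on by recruiting CDC45, the GINS complex and MCM10, after which primase and the polymerases copy the strands around the sliding clamp PCNA. E2F transcription factors, held in check by the retinoblastoma proteins until late G1, bind the promoters of many of these genes, and in a growing embryonic organ such as the lung at this stage most of them are well expressed.

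Words of the E2F binding motif are therefore shown first, in stretches of mouse promoters (RefSeq sequence, GRCm38.p6) for 5 genes on which the results below turn or that illustrate the spacing of the words. Capitals mark an 8-base E2F word, which is TTTGGCGC, TTTCCCGC, TTTGCCGC or TTTCGCGC on either strand, and each stretch reads 5′ to 3′ on the strand of its gene. The first 4 stretches hold no annotated exon base (GENCODE M21), that of Cdc6 lies in an intron, and that of Mcm7 lies inside annotated exons of Mcm7 and of Ap4m1 on the opposite strand.
Mcm6, chr1:128359706-128359825, minus strand: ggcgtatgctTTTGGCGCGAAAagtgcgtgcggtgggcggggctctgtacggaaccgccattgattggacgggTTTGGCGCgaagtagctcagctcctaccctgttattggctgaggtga
Mcm5, chr8:75109339-75109458, plus strand: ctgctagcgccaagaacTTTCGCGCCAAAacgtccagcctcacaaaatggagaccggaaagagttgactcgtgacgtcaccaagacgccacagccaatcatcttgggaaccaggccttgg
Pola1, chrX:93632186-93632305, minus strand: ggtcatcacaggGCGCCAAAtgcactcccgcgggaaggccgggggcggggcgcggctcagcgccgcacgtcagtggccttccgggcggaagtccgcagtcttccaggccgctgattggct
Cdc6, chr11:98908001-98908120, plus strand: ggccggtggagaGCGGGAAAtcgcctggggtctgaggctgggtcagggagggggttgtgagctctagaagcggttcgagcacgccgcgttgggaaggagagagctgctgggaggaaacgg
Mcm7, chr5:138172030-138172059, minus strand: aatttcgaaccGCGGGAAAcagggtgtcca
The 12-base runs of Mcm6 and Mcm5 are a forward and a reverse word that overlap, and Mcm6 holds another word downstream in the same stretch.

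Such words were more frequent in these promoters than in promoters at large. RefSeq windows from 250 bases before to 50 bases after the start were matched for 29 of the 38 genes, with none for Prim2, Rfc2, Ccne2, Gins4, Gins1, Pole, Gins2, Mcm4 and Tipin. The start of the first window was the RefSeq gene start for 20 of the 29. Some genes had several windows, and a word in any of them counted. An E2F word was present in 14 of the 29 (48.3%), against 704 of 27025 genes (2.6%). The CCAAT word was found in 62.1% of them against 41.1% of all genes, and the GC box GGGCGG in 79.3% against 38.2%. These are matches of letters, not measured binding.

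The most abundant of these transcripts per kb of exon, in control lungs, was Pcna, the sliding clamp, at 2525 ± 249 normalized counts per kb (SD, n = 3), followed by Mcm4 at 1920 ± 131. Mcm3 (1693 ± 97.6), Mcm7 (1671 ± 104), Uhrf1 (1585 ± 91.0), Mcm5 (1516 ± 48.2) and Mcm6 (1495 ± 34.8) came next, and neighbours among these did not differ beyond their SDs. At the low end stood Ccne2 at 145 ± 5.29, Orc1 at 144 ± 6.75 and E2f2 at 100 ± 6.45 normalized counts per kb. Every gene was expressed in every pool. The plot of levels per kb shows that the rank order runs across the roles, with Pcna and most helicase subunits at one end and Ccne2, Orc1 and E2f2 at the other.

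**Figure D1:**
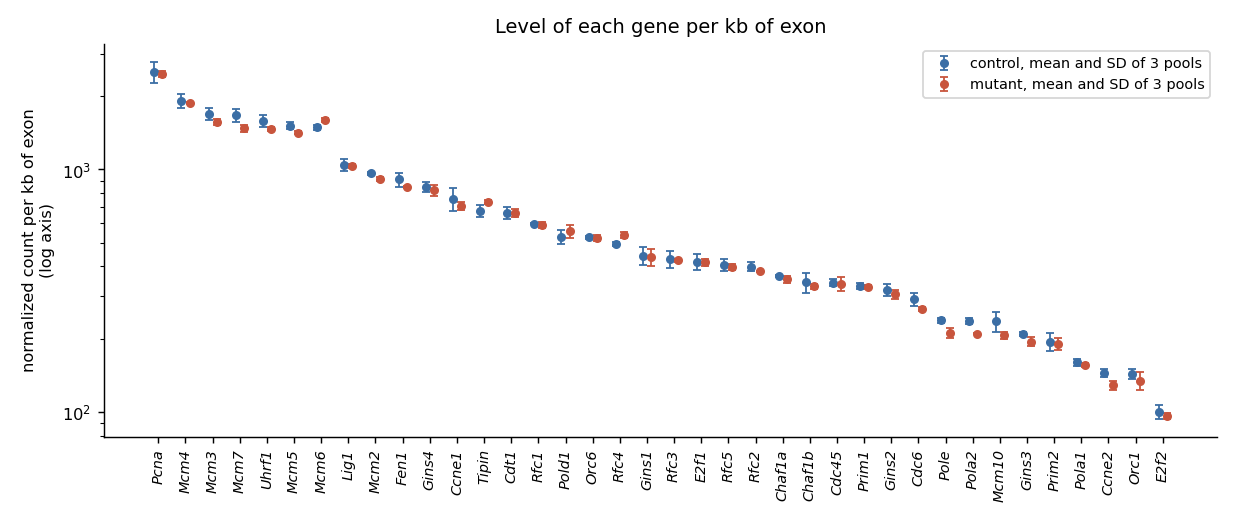
Level of each of the 38 genes in control (blue) and mutant (red) lungs as normalized counts per kb of exon on a log axis, as the mean with SD of 3 pools, ordered by the control level. Levels run from 100 for E2f2 to 2525 for Pcna in control lungs and from 96.9 for E2f2 to 2477 for Pcna in mutant lungs.

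No gene of the group changed at an adjusted p under 0.05 between control and mutant lungs (limma on log2(normalized count + 1), adjusted over all 17168 tested genes, of which 0.501% passed). The lowest adjusted p in the group was 0.124, for Pola2. Of the 38 log2 fold changes, 33 were below 0, where 50.5% of all tested genes were, but without control pool 2 only 23 of the 38 were. The median log2 fold change was -0.048, beside -0.0021 over all tested genes, and it moved to -0.017 without control pool 2, to -0.031 without mutant pool 3 and to -0.080 without control pool 3. The median size of the change regardless of sign was 0.059, beside 0.10 over all tested genes. The 38 genes had mean normalized counts of 479 to 7232, whereas the tested genes included far lower ones. Genes of like expression were not compared. Scaling each library to the mean of epithelial markers instead moved the median of all tested genes by 0.37 on the log2 scale. It turned all 33 genes that were below 0 above 0. The log2 fold changes of these markers ran from -0.97 (Cdh1) to 0.44 (Krt19), so the shift depends on the markers chosen. With Xist as a covariate the median became -0.11. Xist itself differed between genotypes by -4.2 on the log2 scale, with only control pool 2 inside the mutant range. That covariate is therefore largely confounded with genotype. In whole lungs, fewer cells of a type and less RNA per cell cannot be told apart.

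At an unadjusted p under 0.05, 11 of the 38 genes passed, where 13.6% of all tested genes did. Lower in mutant lungs were 9 of them, Mcm3, Mcm5, Mcm7, Cdc6, Mcm10, Pola2, Pole, Ccne2 and Uhrf1, beside 6.89% of all tested genes. Higher were Mcm6 and Rfc4, beside 6.67%. The edgeR quasi-likelihood test on recovered reads gave the same split of 9 lower and 2 higher and 0 genes at an adjusted p under 0.05. With Xist as a covariate in limma, 11 were lower and 0 higher, beside 10.7% of all tested genes in either direction. Of the 11 genes, 6 were shared with those above, and the lowest adjusted p was 0.054, for Mcm7 (-0.30). Since Xist was largely confounded with genotype, this fit does not separate sex from genotype. All mutant pools lay below all control pools for 9 of the 38 genes (10.5% of all tested genes) and above them for 2 (9.77%).

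Under the deposited scaling, the 95% intervals of all 38 log2 fold changes lay between -0.34 and 0.24, that is between 20.9% lower and 18.3% higher, and 36 of them lay within 0.3 of 0. These bounds hold for that scaling only, since under scaling to epithelial markers the estimates themselves ran from 0.19 to 0.50. The estimate was under 10% in either direction for 33 genes. The most negative estimate was that of Mcm10 (-12.3%) and the most positive that of Rfc4 (8.77%). The median SE of the log2 fold change was 0.053.

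**Figure D2:**
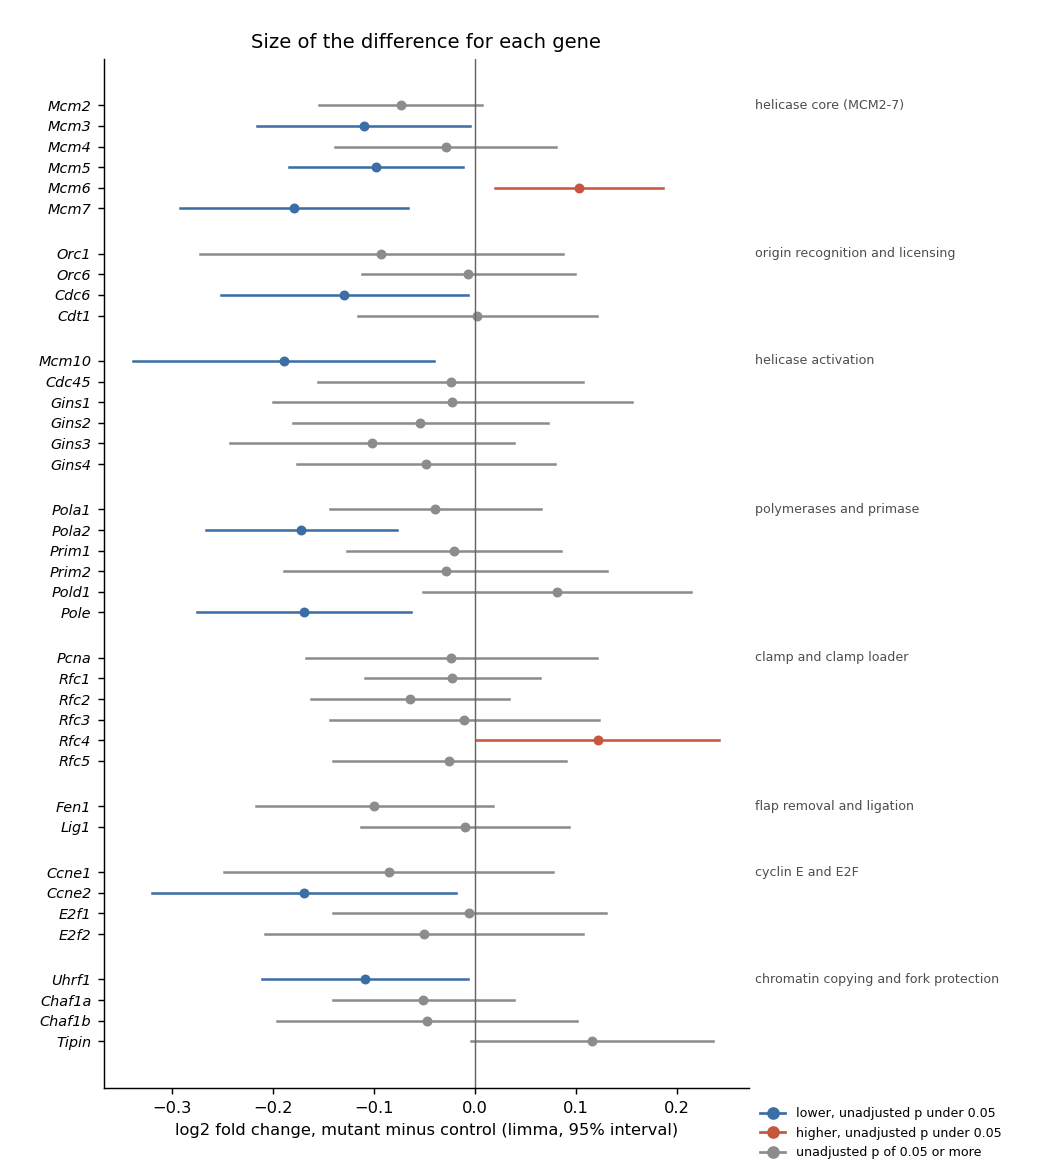
Log2 fold change of each gene, mutant minus control, with its 95% interval from limma, grouped by role; blue and red mark genes at an unadjusted p under 0.05 that were lower or higher in mutant lungs, and grey the others. The points run from -0.19 for Mcm10 to 0.12 for Rfc4, and 9 intervals lie below 0 and 2 above.

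The control pools differed from each other by more than the genotype means did. Averaged over the 38 genes, the deviation from the mean of the 6 pools on the log2 scale came to 0.033 for control pool 1, 0.078 for control pool 2 and -0.034 for control pool 3, beside -0.022, -0.020 and -0.035 for the mutants. Control pool 3 thus lay among the mutant pools, while control pools 1 and 2 lay above them. Xist ran the other way among the control pools, lowest in pool 2 and highest in pool 3. Averaged in the same way, epithelial markers came to 0.22, 0.33 and 0.023 in control pools 1, 2 and 3, in the order of the 38 genes. Erythroid markers came to 0.034, -0.43 and 0.45, in the order of Xist. Whether sex or tissue content plays a part in these differences was not tested. Of the reads of a library, the group took 0.501%, 0.517% and 0.479% in control and 0.480%, 0.480% and 0.477% in mutant lungs. Control pool 3 also lay farthest from its own group over all genes, with a median deviation of 0.15 on the log2 scale against 0.075 to 0.13 in the other pools. Without it, 3 of the 38 genes passed at an adjusted p under 0.05 in limma, each lower in mutant lungs, namely Mcm7 (-0.22, adjusted p = 0.0141), Mcm10 (-0.26, adjusted p = 0.0143) and Mcm3 (-0.15, adjusted p = 0.0471). Over all 16993 genes tested in that fit, 468 passed, beside 86 of 17168 with all pools. Leaving out each of the 6 pools in turn moved the number at an unadjusted p under 0.05 between 3 and 16, the highest without control pool 3 and the lowest without mutant pool 1. In these fits 16.9% and 10.6% of all tested genes passed that threshold.

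**Figure D3:**
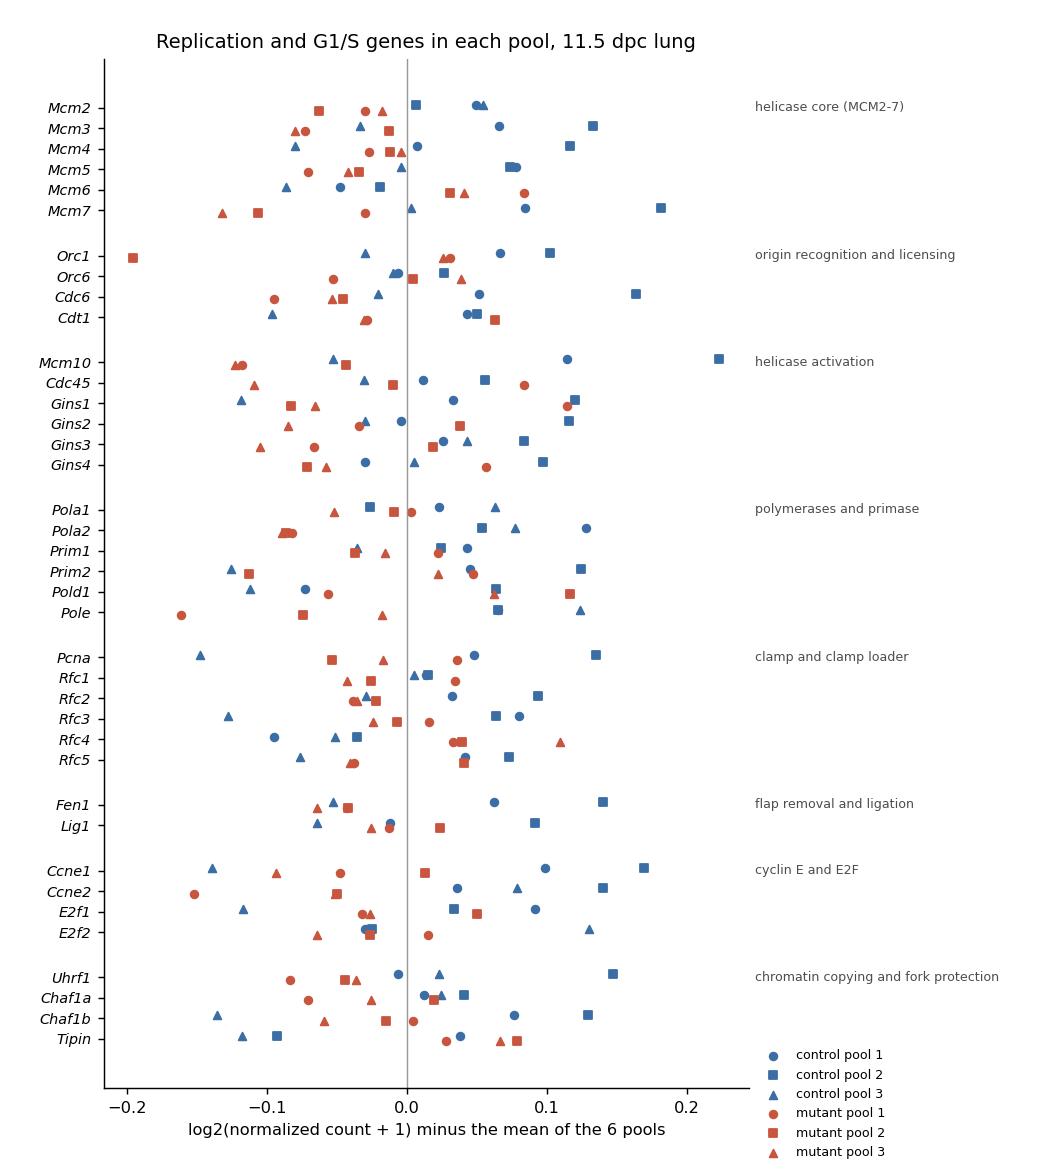
Each gene in each of the 6 pools, as log2(normalized count + 1) minus the mean of the 6 pools, with control pools in blue, mutant pools in red and the pool number given by the marker shape. For many genes control pool 2 (blue square) lies far to the right and control pool 3 (blue triangle) among the mutant pools; for Mcm6 and Rfc4 all mutant pools lie to the right of all control pools.

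The helicase subunits MCM2 to MCM7 form a ring with one copy of each protein. Mcm7, on chromosome 5 (138164583 to 138172422 in mm10, minus strand, 15 exon blocks), had normalized counts of 7359.8, 7872 and 6958 in control and 6799, 6449 and 6335 in mutant lungs. All mutant pools were below all control pools, with a log2 fold change of -0.18 ± 0.051 (SE, unadjusted p = 0.00519, adjusted p = 0.159 in limma). Its exon blocks, merged over all annotated transcripts, overlap the microRNA genes Mir25 and Mir93, which need not lie in exons of the main transcript. The blocks share 7.25% of their length with Ap4m1 and 1.45% with Cops6 on the opposite strand.

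Mcm6 went the other way. Its normalized counts were 6989, 7128 and 6805 in control and 7655, 7379.96 and 7433 in mutant lungs, and every mutant pool was above every control pool. The log2 fold change was 0.10 ± 0.037 (SE, limma unadjusted p = 0.0197, adjusted p = 0.254). With Xist, largely confounded with genotype, as a covariate it was 0.051 (adjusted p = 0.776 in limma), and Mcm6 no longer passed the unadjusted threshold. Mcm6 lies on chromosome 1 (128331590 to 128359664, minus strand, 16 exon blocks) and shares no exon base with another gene.

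Of the other subunits, Mcm3 had 6392, 6696 and 5968 normalized counts in control and 5806, 6054 and 5778 in mutant lungs, with control pool 3 inside the mutant range (log2 fold change -0.11). Mcm5 had 6171, 6154 and 5829.6 in control and 5568, 5711 and 5678 in mutant lungs without overlap (-0.098). Mcm2 had 6757, 6558 and 6779.8 against 6395, 6251 and 6449, also without overlap, but missed the unadjusted threshold (-0.074, limma unadjusted p = 0.0691). Mcm4 overlapped, with 6845, 7383 and 6443 in control against 6682, 6754 and 6790.2 in mutant lungs (-0.029).

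Because the subunits work in equal copies, Mcm6 was also set against each of the others within a pool, a ratio that no scaling of the libraries can change. This ratio was chosen after the values were seen and is given without a test. The log2 ratio of Mcm6 to Mcm7 was -0.075, -0.14 and -0.032 in control and 0.17, 0.19 and 0.23 in mutant lungs. The ratio was higher in every mutant pool than in every control pool, and the same was true against each of the other 4 subunits. The difference between mutant and control means was 0.28 on the log2 scale for Mcm7, 0.21 for Mcm3, 0.20 for Mcm5, 0.18 for Mcm2 and 0.13 for Mcm4.

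**Figure D4:**
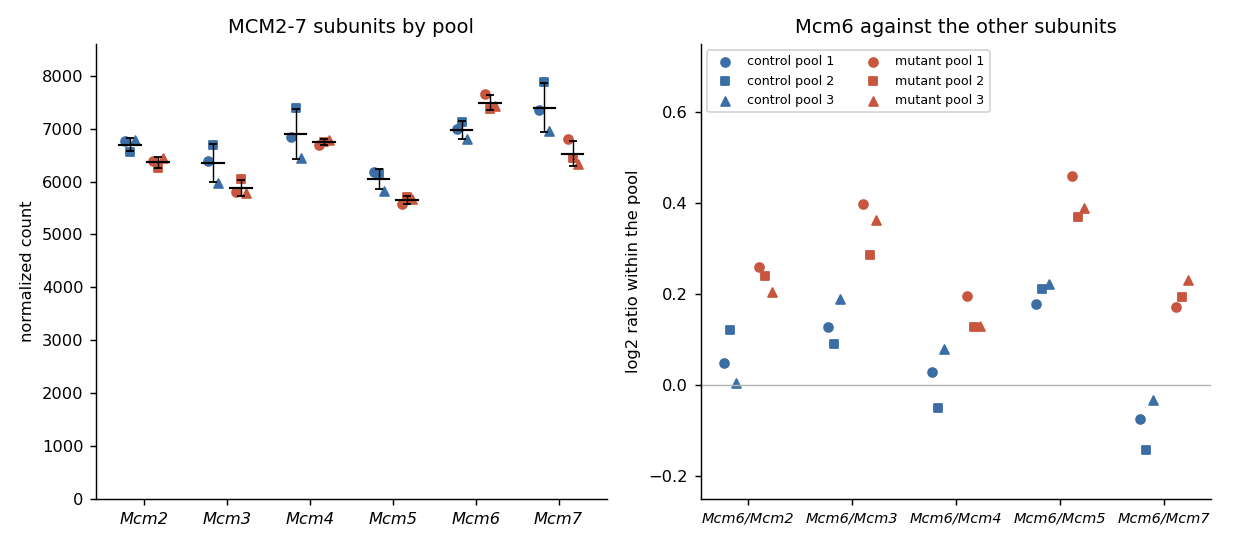
Left, normalized counts of the 6 helicase subunit transcripts in each pool, with mean and SD of 3 pools per genotype; right, the log2 ratio of Mcm6 to each other subunit within each pool. Mcm6 is the subunit with mutant pools above control pools, and all 5 ratios are higher in the 3 mutant pools than in the 3 control pools.

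Among the licensing genes, Cdc6, the ATPase that helps load the helicase, had 1512, 1634 and 1438 normalized counts in control and 1366, 1414 and 1406 in mutant lungs. The groups did not overlap, with a log2 fold change of -0.13 ± 0.055 (SE, adjusted p = 0.338 in limma). Its partner Cdt1 was at 2139, 2149.9 and 1942 in control and 2036, 2169 and 2033 in mutant lungs, and its log2 fold change was 0.0024 with a 95% interval from -0.12 to 0.12. The origin recognition subunits overlapped between genotypes: Orc1 stood at 507, 519.6 and 474 against 495, 423 and 493 (-0.093), its low mutant value coming from mutant pool 2 alone. Orc6 stood at 1287, 1316 and 1283 against 1246, 1296 and 1327 (-0.0069).

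The genes that turn the loaded helicase into a moving one were all below 0. Mcm10, which binds the helicase as it is activated, had the lowest log2 fold change of the 38 genes, -0.19 ± 0.067 (SE, limma unadjusted p = 0.0176, adjusted p = 0.243). Its normalized counts were 1845, 1989.7 and 1643 in control and 1570.4, 1654 and 1566 in mutant lungs. Control pool 3 lay just within the mutant range while the other control pools were well above it.

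The subunits of the GINS complex, which holds CDC45 to the helicase, gave log2 fold changes of -0.023 (Gins1), -0.054 (Gins2), -0.10 (Gins3) and -0.049 (Gins4). Only Gins3 was without overlap, at 559, 582 and 566 in control and 524, 556 and 510.4 in mutant lungs (limma unadjusted p = 0.138). Cdc45 stood at 1199, 1237 and 1165 against 1261, 1181 and 1103, with the mutant pools spanning the whole control range (-0.024). Gins2 shares 67.3% of its exon length with Gse1 on the opposite strand, and since the counting is not stated to use strand, its value is uncertain.

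Pola2 and Pole differed most among the polymerase genes. Pola2, the regulatory subunit of the polymerase α-primase complex that starts each new strand, had 2030.3, 1929 and 1960.1 normalized counts in control and 1755, 1750.1 and 1747 in mutant lungs. The mutant pools were nearly identical and all below the controls, with a log2 fold change of -0.17 ± 0.042 (SE, limma unadjusted p = 0.00224, adjusted p = 0.124). The other members of the same 4-part complex overlapped between genotypes. Pola1, its catalytic subunit, was at 1418, 1371 and 1458 against 1399, 1387 and 1347 (-0.039). Prim1 (1314, 1298 and 1244 against 1296, 1243 and 1262) and Prim2 (1181, 1247 and 1049 against 1182, 1058 and 1162), the primase subunits, gave -0.021 and -0.029.

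Pole, the catalytic subunit of the leading-strand polymerase ε, had 2632, 2632 and 2740.4 normalized counts in control and 2249.9, 2389 and 2485 in mutant lungs. No mutant pool reached the lowest control pool, and the log2 fold change was -0.17 ± 0.048 (SE, limma unadjusted p = 0.00515, adjusted p = 0.159). Pold1, the catalytic subunit of the lagging-strand polymerase δ, was at 2499, 2746 and 2431 against 2527, 2849 and 2744, with overlap and a log2 fold change of 0.081 (95% interval from -0.051 to 0.21).

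Pcna ranged more widely among control pools, from 5408 in pool 3 to 6194 and 6581 in pools 1 and 2, than among mutant pools, at 6142, 5773 and 5921. Its log2 fold change was -0.024 with a 95% interval from -0.17 to 0.12. Of the 5 subunits of replication factor C, which loads the clamp, Rfc4 was higher in every mutant pool (806, 809.9 and 850.00) than in every control pool (738, 769 and 760.4). Its log2 fold change was 0.12 ± 0.054 (SE, limma unadjusted p = 0.0489, adjusted p = 0.366), and 12.7% of its exon length is shared with Eif4a2 on the opposite strand. The other subunits overlapped between genotypes, with -0.022 for the large subunit Rfc1, -0.064 for Rfc2, -0.011 for Rfc3 and -0.025 for Rfc5. Rfc1 was the tightest of them in control lungs, at 3603, 3608 and 3581.

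The enzymes that finish the lagging strand also overlapped. Fen1, the nuclease that trims flaps, had 2221, 2343 and 2051 normalized counts in control and 2064, 2066 and 2034 in mutant lungs, with control pool 3 inside the mutant range (-0.10). An antisense gene not in the table, Gm10143, covers 78.8% of its exon length. Lig1, the ligase that seals the nicks, stood at 4389.6, 4715 and 4232 against 4386, 4499 and 4348 (-0.0099).

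The cyclin E genes encode the activating subunits of the kinase that drives entry into S phase. Ccne2 had 490.1, 527 and 505 normalized counts in control and 430.2, 462 and 461 in mutant lungs. There was no overlap, and the log2 fold change was -0.17 ± 0.067 (SE, limma unadjusted p = 0.0307, adjusted p = 0.306). It shares 17.4% of its exon length with Ints8. Ccne1, at 2083, 2188 and 1767 against 1883, 1964 and 1824, overlapped because of control pool 3 (-0.085). Within a pool, the log2 ratio of Ccne1 to Ccne2 counts was 1.98 ± 0.15 in control and 2.07 ± 0.076 in mutant lungs (SD, n = 3), so that the difference of 0.084 lay within the spread of the control pools.

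E2f1 and E2f2 encode activator E2Fs. E2f1 had 1395, 1339.9 and 1207 normalized counts in control and 1280.3, 1355 and 1285 in mutant lungs, and its log2 fold change was -0.0056 with a 95% interval from -0.14 to 0.13. E2f2 had 471, 473 and 527 against 486, 473 and 460.3, with overlap (-0.050). The log2 ratio of E2f1 to E2f2 counts was 1.42 ± 0.20 in control and 1.47 ± 0.063 in mutant lungs (SD, n = 3).

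Genes with and without an E2F word in the promoter window were also set side by side, without a test. Of the 14 with a word, 11 had a log2 fold change below 0, with a median of -0.071, and 5 were lower and 1 was higher at an unadjusted p under 0.05. Of the 15 without a word, 14 were below 0, with a median of -0.025, and 2 were lower and 1 was higher. Over all tested genes, 50.5% were below 0, 6.89% lower and 6.67% higher. Mcm6 and Mcm5, with the same overlapping arrangement of words shown above, had log2 fold changes of opposite sign, 0.10 and -0.098. Pola1 holds a word and Cdc6 holds one too, at -0.039 and -0.13.

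Of the genes that copy chromatin with the DNA, Uhrf1, which guides maintenance methylation to new DNA, had 6467, 7193 and 6597 normalized counts in control and 6131, 6299 and 6334 in mutant lungs. The groups did not overlap, with a log2 fold change of -0.11 ± 0.046 (SE, limma unadjusted p = 0.0384, adjusted p = 0.334). The subunits of chromatin assembly factor 1, which deposits histones behind the fork, overlapped, with -0.051 for Chaf1a (3202, 3266 and 3228 against 3023, 3218 and 3119) and -0.047 for Chaf1b (1659, 1721 and 1432 against 1578, 1557 and 1509.6). Chaf1a shares 52.5% of its exon length with Ubxn6 on the opposite strand. Tipin, a subunit of the complex that steadies the fork, had 1351, 1234 and 1213 in control and 1342, 1389 and 1378 in mutant lungs, with control pool 1 inside the mutant range (0.12, limma unadjusted p = 0.0575).

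Further genes of the same pathways were counted in the same way. Of 67 tested genes from lists of other replication genes and of other G1/S control genes, 0 passed at an adjusted p under 0.05 in limma or in edgeR, 8 were lower and 4 higher at an unadjusted p under 0.05 (17.9%, beside 13.6% of all tested genes), and 54 had a log2 fold change below 0 (median -0.059). Among the 43 other replication genes, 35 were below 0 (median -0.062). Dna2, a nuclease that processes flaps and broken ends, had the lowest adjusted p, at 902, 958 and 974 normalized counts in control and 769, 809 and 784 in mutant lungs (-0.26 on the log2 scale, adjusted p = 0.0814 in limma). Cdc7, the kinase that fires licensed origins, gave -0.18 (adjusted p = 0.195 in limma) and Nasp, a histone chaperone, -0.13 (adjusted p = 0.222). All 3 genes were lower in every mutant pool than in every control pool.

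Among the 24 other G1/S control genes, 19 were below 0 (median -0.040), 2 were lower and 3 higher at an unadjusted p under 0.05 (20.8%, beside 13.6% of all tested genes). Cdkn1b, which encodes the cyclin-dependent kinase inhibitor p27, had 770.1, 720.1 and 799 normalized counts in control and 959, 889 and 869.6 in mutant lungs. Every mutant pool was above every control pool, with a log2 fold change of 0.25 (limma unadjusted p = 0.00276, adjusted p = 0.132). Rbl2, a retinoblastoma family member, was at 498, 423 and 464 against 559.9, 532 and 530.03 (0.23, adjusted p = 0.212 in limma). E2f4, a repressor E2F that works with it, was at 2994, 3085 and 2910.3 against 2656, 2656 and 2826 (-0.14, adjusted p = 0.192 in limma).

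Mitosis genes act in the later part of the cycle. Of 20, 15 were below 0 (median -0.056, beside 50.5% of all tested genes), 5 were lower and 0 higher at an unadjusted p under 0.05 (beside 6.89% and 6.67%), and 0 passed at an adjusted p under 0.05 in limma or edgeR. Aurka, a spindle kinase, gave -0.16 on the log2 scale (adjusted p = 0.144 in limma), Ccnb1, the mitotic cyclin, -0.16 (adjusted p = 0.205 in limma) and Bub1b, a spindle checkpoint gene, -0.13 (adjusted p = 0.218 in limma).

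Markers of epithelium and mesenchyme moved with genotype. Of 20 epithelial markers, 18 were lower (median log2 fold change -0.43) and 7 fell at an adjusted p under 0.05 in limma, among them Cdh1 (-0.97), Cldn6 (-0.71) and Krt8 (-0.55). Their summed normalized counts were 21384 to 27062 in control and 17834 to 18945 in mutant lungs. All 12 mesenchymal markers were higher (median 0.20), 4 of them at an adjusted p under 0.05, with Col1a1 (0.49), Col1a2 (0.34) and Fgf10 (0.64) lowest in p and summed counts of 96956 to 103631 against 117689 to 125769. The lung epithelial factor Nkx2-1 was present in every pool, at 2060.5 to 2686 in control and 1977 to 2061 in mutant lungs; it was named after its values were seen, as a check of the tissue. The part of these shifts in the log2 fold changes of the 38 genes was not tested.

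Markers of other cell types were counted likewise. Endothelial markers were higher in 9 of 10 (median 0.18, 0 at an adjusted p under 0.05 in limma and in edgeR, 6 at an unadjusted p under 0.05). Of 7 tested erythroid markers 5 were lower, and the summed counts of the list overlapped, at 98569 to 128174 in control and 98184 to 121899 in mutant lungs. Hba-a1 and Hba-a2 were at 0 in all pools, where Hba-x had 37940 to 50493 normalized counts. Whether these values of 0 reflect expression or the counting was not tested. Macrophage markers were higher in 8 of 9, mesothelial markers in 5 of 6 with Wt1 (0.31) at an adjusted p of 0.0496 in limma, while cardiac muscle markers were lower in 7 of 10 and neural markers in 6 of 10.

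**Figure D5:**
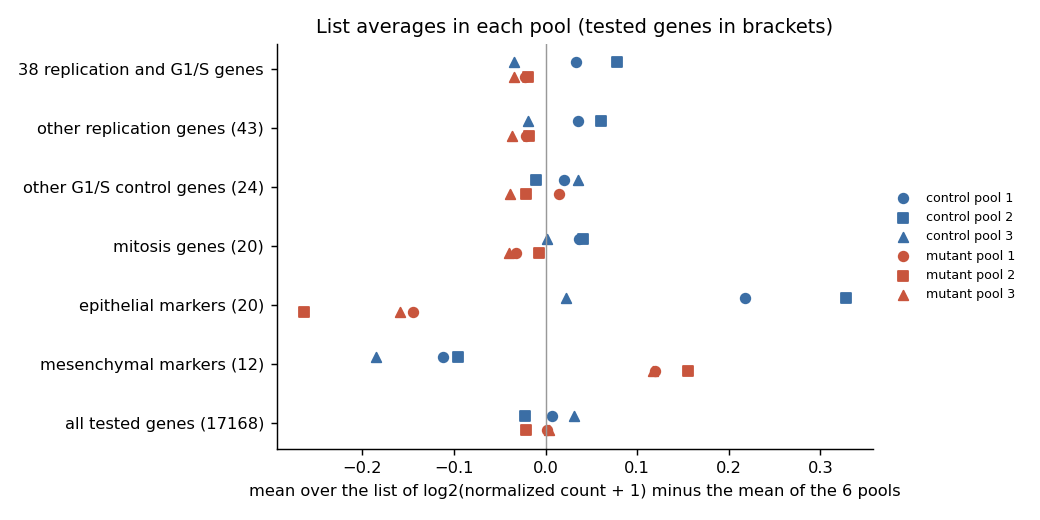
Mean over each list of log2(normalized count + 1) minus the mean of the 6 pools, for each pool, with control pools in blue and mutant pools in red. The replication, G1/S and mitosis lists stay within 0.078 of 0 in every pool. Of these, the mitosis list alone is lower in every mutant pool than in every control pool, by a narrow margin. The epithelial and mesenchymal lists separate the genotypes more widely and in opposite directions.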

How the data were processed

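Whole-lung RNA-Seq libraries (3 control and 3 mutant pools, grouped by their labels) were sequenced on the BGISEQ platform. The deposited table holds normalized counts (signal unit), which are gene counts that the authors divided by a size factor per library. Its columns of the authors' own comparison (fold changes, their errors and p-values) and overall mean were not used. The submitters' processing notes name Trim Galore, HISAT2, featureCounts, DESeq2 and mm10, and strand settings are not given in the sources used here. Dividing each library's values by its smallest increment returned whole reads for 100% of them (within 0.001 of a read), that is 20197642 to 21276090 reads per library.

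The 17168 of 23420 genes that reached 1 in 3 or more libraries were fitted with limma 3.58.1 in R 4.3.3 (lmFit, eBayes with trend) on log2(normalized count + 1) and called at a Benjamini-Hochberg adjusted p under 0.05. A fold change on this scale understates the change of low genes. An exact permutation test of 3 against 3 pools cannot give a p below 0.1, so none is reported. edgeR 4.0.16 (quasi-likelihood) on recovered reads was an alternative. Both fits were tested on simulated data with planted changes larger than any estimate of the 38 genes. That check does not show whether changes of the size seen here would be found. Genes named beyond the 38 were the 3 lowest in unadjusted p of each pathway or mitosis list, and up to 3 of each marker list, besides Rptor, Xist, Nkx2-1 and genes at 0 in all libraries. The 38 genes and all lists were chosen with earlier results of these data known. Exon lengths and overlaps came from GENCODE M21 (mm10), promoters from RefSeq (GRCm38.p6).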

Additional observations from a re-analysis of the deposited data

How the results depend on the processing

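Of 380 log2 fold changes of the 38 genes under the alternatives that keep all pools, 339 kept their sign and side of the adjusted threshold and 36 changed sign. The other 5 kept their sign and passed the adjusted threshold. With upper-quartile scaling, a pseudocount of 0.1, no filter at all or one of 10 in each library, and edgeR with or without its low count filter, 9 genes were lower, 2 higher and 0 past the adjusted threshold of 0.05. Without the trend, limma gave 5 of the 38 and 6 of the other pathway genes at an unadjusted p under 0.05, where 11.7% of all tested genes passed.

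Scaling each library to the epithelial markers moved the median of all genes by 0.37 on the log2 scale. The median of the 38 genes became 0.33, 32 passed the adjusted and 33 the unadjusted threshold, as did 59 of the other pathway genes (unadjusted). Of all 17363 genes tested under this scaling, 9770 passed the adjusted threshold and 62.3% the unadjusted one, so most tested genes shifted with the 38. The log2 fold changes that became positive were Mcm2 0.31, Mcm3 0.27, Mcm4 0.35, Mcm5 0.28, Mcm7 0.20, Orc1 0.29, Orc6 0.37, Cdc6 0.25, Mcm10 0.19, Cdc45 0.35, Gins1 0.36, Gins2 0.32, Gins3 0.28, Gins4 0.33, Pola1 0.34, Pola2 0.21, Prim1 0.36, Prim2 0.35, Pole 0.21, Pcna 0.36, Rfc1 0.36, Rfc2 0.31, Rfc3 0.37, Rfc5 0.35, Fen1 0.28, Lig1 0.37, Ccne1 0.29, Ccne2 0.21, E2f1 0.37, E2f2 0.33, Uhrf1 0.27, Chaf1a 0.33, Chaf1b 0.33. With Xist as a covariate, 11 were lower and 0 higher at an unadjusted p under 0.05 (10.7% of all tested genes in either direction). The median was -0.11, Cdt1 became -0.035, Pola1 0.0029 and E2f2 0.0024. Xist was largely confounded with genotype in these pools.

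Leaving out single pools gave 0 to 3 of the 38 genes past the adjusted threshold, 3 to 16 at an unadjusted p under 0.05, 6 to 21 of the other pathway genes, and a median over the 38 genes of -0.080 to -0.017. Over all tested genes, these fits gave 1 to 468 past the adjusted threshold and 9.20% to 16.9% at an unadjusted p under 0.05. A change of sign occurred for Rfc3 -0.077 to 0.027, E2f1 -0.066 to 0.039, Mcm4 -0.076 to 0.022, Orc6 -0.028 to 0.018, Gins1 -0.088 to 0.031, Prim2 -0.10 to 0.026, Pcna -0.10 to 0.038, Rfc5 -0.070 to 0.0046, Lig1 -0.045 to 0.033, Chaf1b -0.13 to 0.0059, Cdt1 -0.045 to 0.028, E2f2 -0.078 to 0.0020, Cdc45 -0.072 to 0.025. The cause was not tested.

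The replicate numbers did not pair the pools. Deviations from the group mean of pools with the same number correlated at -0.019, 0.10 and 0.031, and a replicate block gave 9 lower and 1 higher at an unadjusted p under 0.05 and 0 past the adjusted threshold; it changed no adjusted call.

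With 20197642 to 21276090 reads per library and 3 pools per genotype, the median SE of the log2 fold change was 0.053. How small a difference would be found at this depth and number of pools was not tested. With all pools and the deposited scaling, the largest estimate, -12.3% for Mcm10, missed the adjusted threshold (adjusted p = 0.243 in limma).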
